A study of Mus musculus with 4 samples.

Results

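The immediate early response genes described here are Fos, Fosb, Jun, Junb, Atf3, Egr1, Dusp1, Zfp36, Ier2 and Ier3, 10 of the 22180 genes that had a probe set naming 1 gene symbol. They were chosen by symbol, with earlier results of these data known. Counts set beside the share over all genes therefore describe these genes and are no test of them as a set. Each had exactly 1 such probe set, and 0 probe sets that name several genes held any of them. Caecal tissue of mice was profiled on Affymetrix arrays, and a single array stands for each of the 4 groups: apoE knock-out (KO) mice with prebiotics, apoE KO mice without, wild-type (WT) mice with prebiotics and WT mice without. The strain was C57Bl/6 and the age 21 weeks throughout, and an n-3 PUFA depleted diet was fed to every group, controls included. Prebiotics were given at 250 mg per mouse per day during the final 15 days, and the title of the study places it in work on the gut microbiota and endothelial dysfunction. Each array holds pooled RNA of 6 mice picked for RNA quality, so no value has a replicate of its own group and the spread between mice is not seen.

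Of the labels of each of the 2 WT arrays, 3 give one diet and 1 (the description) gives the opposite. The WT arrays are grouped by title below, and values that depend on this are given by title. The KO pair has no such conflict.

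Immediate early genes are transcribed within minutes of a stimulus such as a growth factor, a cytokine or cell stress, without the need for new protein. Signalling kinases, MAP kinases among them, switch on factors already bound to their promoters, such as CREB and partners of the serum response factor. Many of the products are transcription factors, and others switch the signal off again, so the response is short. Fos and Jun proteins pair to form the factor AP-1. In the intestinal wall such genes are expressed in epithelium, muscle, vessels and immune cells.

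A gene was tested where its log2 RMA value, on any of the 4 arrays, was no lower than that array's median over single-symbol probe sets. These medians lay between 2.99 and 3.01. The filter kept 9 of the 10 immediate early genes and 13083 genes in all. The 9 reached the median on all 4 arrays, and Fosb did so on 0 of 4. Probe sets differ in brightness, so levels are compared between arrays for 1 gene and not between genes.

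The upstream factors bind short promoter elements, which only some of these genes carried in the window searched. The promoters of the genes with the 2 largest prebiotic differences, Dusp1 and Zfp36, are printed here with that of Fos, the founding member. They are the 250 bases before the annotated start, from RefSeq on build GRCm38.p6, which held a promoter for 8 of the 10 genes. Dusp1 lies at chr17:26508473-26508722 on the minus strand, Zfp36 at chr7:28379229-28379478 on the minus strand and Fos at chr12:85473640-85473889 on the plus strand. Capitals mark TGACGT (the core of the cyclic AMP response element), the CArG box (the site of the serum response factor) and TATAAA, each searched on both strands.
Dusp1: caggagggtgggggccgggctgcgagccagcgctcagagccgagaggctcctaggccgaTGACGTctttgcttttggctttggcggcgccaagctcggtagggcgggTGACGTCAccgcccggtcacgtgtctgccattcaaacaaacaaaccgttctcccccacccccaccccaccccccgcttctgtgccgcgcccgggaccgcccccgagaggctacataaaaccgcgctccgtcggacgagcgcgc
Zfp36: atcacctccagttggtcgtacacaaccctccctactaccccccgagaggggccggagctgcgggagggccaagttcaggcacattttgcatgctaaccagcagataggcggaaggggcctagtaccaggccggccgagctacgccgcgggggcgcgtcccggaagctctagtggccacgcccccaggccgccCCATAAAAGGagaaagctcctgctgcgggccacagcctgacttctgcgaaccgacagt
Fos: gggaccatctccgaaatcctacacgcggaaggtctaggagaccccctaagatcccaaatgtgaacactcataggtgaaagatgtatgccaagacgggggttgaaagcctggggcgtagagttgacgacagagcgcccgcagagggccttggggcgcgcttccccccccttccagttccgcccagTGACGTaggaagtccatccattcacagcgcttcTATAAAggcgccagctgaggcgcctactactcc
In the Dusp1 promoter, TGACGT began at -191, -143 and -141 from the start, and the last pair overlap on opposite strands as 1 copy of TGACGTCA. The Zfp36 promoter had 1 CArG box, at -58, and 0 copies of TGACGT. The Fos promoter had TGACGT at -66 and TATAAA at -33, and 0 CArG boxes within these 250 bases. Sequence farther upstream was not searched. Over the 8 promoters, TGACGT was found in 3 (Fos, Atf3 and Dusp1), TGACGTCA in 1, the CArG box in 1 and TATAAA in 1. Among all 32851 promoters of the table, 6.47% held TGACGT, 1.55% TGACGTCA, 1.47% the CArG box and 12.4% TATAAA. With N for any base, 3 more motifs were searched. GGGCGG was found in 7 of the 8, against 32.7% of all promoters. GCGNGGGCG was found in 2, against 4.7%, and TGANTCA in 0, against 6.75%. Matches describe the letters of this window only.

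With the WT arrays grouped by title, most of these genes had higher values with prebiotics in both genotypes. Both arrays with prebiotics lay above both arrays without for 7 of the 9 tested genes (Jun, Junb, Atf3, Dusp1, Zfp36, Ier2 and Ier3), with WT by title, against a background of 25.5% of the 13083 genes. For Egr1 both lay below, as did 17.4% of genes, and for Fos the arrays overlapped. With the WT arrays exchanged, both arrays with prebiotics lay above both without for 1 of the 9, Fos, against 14.0% of genes, and the median of the WT pair was -0.27. In limma over both genotypes, Dusp1 alone passed the test, against a background of 0.994% of genes called higher. At an unadjusted p under 0.05 stood 3 of the 9 (Dusp1, Zfp36 and Ier3), against 13.8% of genes. The difference over both genotypes was above 0 for 8 of the 9, against 55.1%, and it was above 0 within each genotype for 7, against 34.1%. The median difference of the 9 was 0.25 on the log2 scale, beside 0.02 over all genes tested. The plot of each gene by array shows these values.

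**Figure D1:**
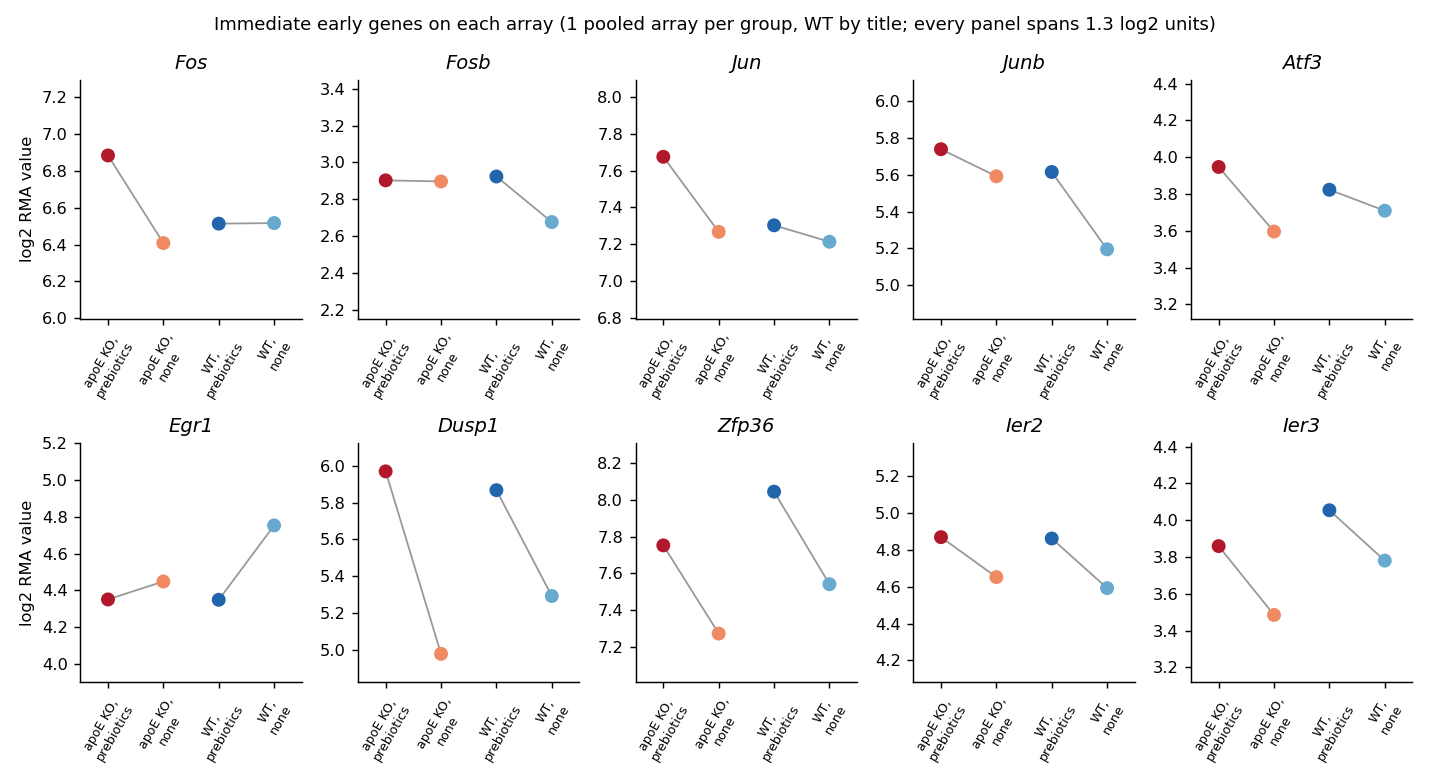
Log2 RMA values of the 10 immediate early genes on the 4 arrays, 1 point per pooled array, with lines joining the arrays with and without prebiotics of 1 genotype (WT by title) and panels of equal height. Dusp1 has the widest range (0.99 log2 units), Egr1 runs the other way and Fosb stays below the array median on every array.

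The feedback regulators had the largest differences. Dusp1 encodes a phosphatase that inactivates MAP kinases. It had 5.97 with prebiotics and 4.98 without in KO caecum, and 5.87 and 5.29 in the WT pair. The 2 arrays with prebiotics differed by 0.10 and stood apart from both arrays without. The log2 difference was 0.99 in KO (1.99-fold) and 0.58 in WT (1.49-fold). It ranked 61st of 12216 genes in KO and 271st of 12223 in WT, counted from the highest. Over both genotypes Dusp1 rose by 0.78 (SE 0.14, limma adjusted p = 0.0377). Without the expression filter the adjusted p was 0.0928 and without a variance trend 0.131. With the WT arrays exchanged the difference was 0.21 (limma adjusted p = 1).

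Zfp36 encodes tristetraprolin, which binds AU-rich elements and speeds the decay of cytokine mRNAs. It had 7.75 with prebiotics and 7.27 without in KO caecum, and 8.04 and 7.54 in WT. The log2 difference was of nearly the same size in the 2 pairs, 0.48 in KO (1.39-fold) and 0.50 in WT (1.42-fold). Over both genotypes it was 0.49 (SE 0.10, limma adjusted p = 0.0517), which missed the threshold. The adjusted p lay between 0.0284 and 0.196 over 6 alternatives with WT by title, and 3 of them called it. With the WT arrays exchanged the difference was -0.01.

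Ier3 encodes a regulator of cell survival and Ier2 a nuclear protein. Ier3 had 3.86 with prebiotics and 3.48 without in KO caecum, and 4.05 and 3.78 in WT, so both arrays with prebiotics were the higher. Its log2 difference over both genotypes was 0.32 (SE 0.14, limma adjusted p = 0.336). Ier2 had 4.87 with prebiotics and 4.65 without in KO caecum, and 4.86 and 4.59 in WT. Its range over the 4 arrays, 0.28, was the smallest among the 9, and its difference was 0.24 (SE 0.13, limma adjusted p = 0.475).

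The AP-1 genes had smaller differences, and they were not of 1 size in the 2 genotypes. Fos had 6.88 with prebiotics and 6.41 without in KO caecum, whereas both WT arrays had nearly the same value, 6.514 and 6.517. The KO array with prebiotics was the highest of the 4. Jun, the partner of Fos, had 7.67 with prebiotics and 7.27 without in KO caecum, and 7.30 and 7.21 in WT. Here too the KO array with prebiotics stood highest, and the other 3 lay within 0.09 of each other. Junb, a Jun relative that weakens AP-1 at some targets, had 5.74 with prebiotics and 5.59 without in KO caecum, and 5.62 and 5.19 in WT. For Junb the array apart was the WT array titled without prebiotics, which was the lowest.

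Over both genotypes the log2 differences were 0.24 for Fos (SE 0.14, limma adjusted p = 0.512), 0.25 for Jun (SE 0.12, limma adjusted p = 0.388) and 0.28 for Junb (SE 0.13, limma adjusted p = 0.399). None of these 3 passed, in limma over 13083 genes. Fosb, the second Fos gene on the array, had 2.90 with prebiotics and 2.90 without in KO caecum, and 2.92 and 2.68 in WT. All 4 values lay below the array median, so Fosb was not tested.

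Atf3, a stress-induced relative of AP-1 that binds cyclic AMP response elements, had 3.95 with prebiotics and 3.60 without in KO caecum, and 3.82 and 3.71 in WT. Its difference over both genotypes was 0.23 (SE 0.14, limma adjusted p = 0.525). Egr1, a zinc finger factor of the early growth response, was the exception in direction. It had 4.35 with prebiotics and 4.45 without in KO caecum, and 4.35 and 4.75 in WT. The log2 difference was -0.10 in KO and -0.40 in WT, and -0.25 over both (SE 0.14, limma adjusted p = 0.494). The value that stood apart was that of the WT array titled without prebiotics.

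Within the genotypes, 0 of the 9 genes differed by 2-fold or more in either direction, with Dusp1 in KO just short of it. The background in KO was 0.475% of 12216 genes at least 2-fold higher and 0.139% at least 2-fold lower, and in the WT pair 0.335% and 0.18% of 12223. The difference was above 0 for 8 of the 9 in KO, against 56.0% of all genes, and for 7 of the 9 in WT, against 52.9%. The median over the 9 was 0.37 in KO and 0.27 in WT, beside 0.04 and 0.02 over all genes. Pairs of 1 array against 1 array have no test. The middle 90% of genes in KO lay between -0.37 and 0.47, so Dusp1, Fos and Zfp36 lay beyond it. In WT it lay between -0.38 and 0.45, with Dusp1 and Zfp36 above it and Egr1 below.

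**Figure D2:**
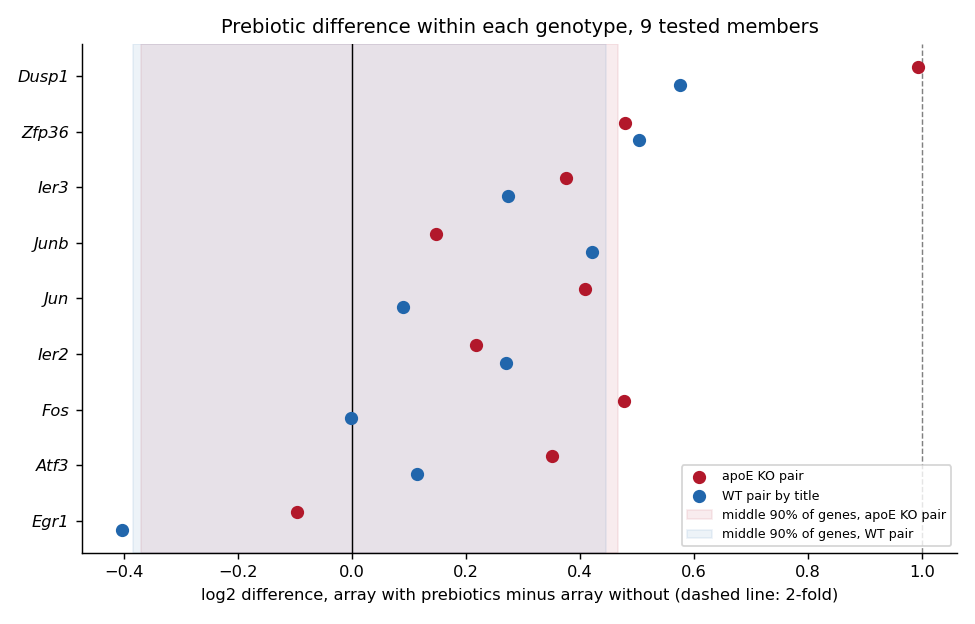
Log2 difference between the array with prebiotics and the array without for the 9 tested genes, in apoE KO (red) and in WT by title (blue), with shaded bands for the middle 90% of all genes. Dusp1 has 0.99 in KO and 0.58 in WT, Zfp36 nearly equal values, and Fos 0.48 in KO with a WT value at about 0.

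With WT by title, the KO prebiotic difference minus the WT one was largest for Fos (0.48) and Dusp1 (0.42). It was 0.32 for Jun and 0.31 for Egr1. It was -0.02 for Zfp36, -0.05 for Ier2 and -0.27 for Junb. The median over the 9 was 0.24, beside 0.02 over all genes tested. With 4 arrays for 4 coefficients this difference has no test, and its value depends on which WT array had prebiotics.

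Genotype left no call among these genes. In limma over both diets, 0 of the 9 were called higher or lower in KO, against a background of 0.0% of genes in each direction, and 0 of 9 had an unadjusted p under 0.05, against 3.29%. The KO and WT arrays overlapped for all 9, while 16.2% of genes had both KO arrays above and 14.0% both below. The largest log2 differences were those of Zfp36 at -0.28 (SE 0.22) and Junb at 0.26 (SE 0.18), followed by Ier3 at -0.25 (SE 0.18) and Jun at 0.21 (SE 0.16), each with a limma adjusted p of 0.999. Leaving out 1 array at a time, the value ran between -0.532 and -0.029 for Zfp36, 0.05 and 0.471 for Junb, -0.432 and -0.058 for Ier3, and 0.009 and 0.417 for Jun. This fit has no diet term, so its SEs also hold the prebiotic difference. The SE of Dusp1 was 0.33 in it and 0.14 with diet by title as a block. With that block limma called 8 of the 13083 genes higher and 4 lower, and 0 of the 9. Zfp36 then had an SE of 0.10 and an unadjusted p of 0.0184 (limma adjusted p = 0.595). It was 1 of the 9 under 0.05, as were 895 of the 13083 genes. The median of the 9 was 0.005, beside 0.01 over all genes. These values come from the same 4 arrays as the prebiotic comparison.

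**Figure D3:**
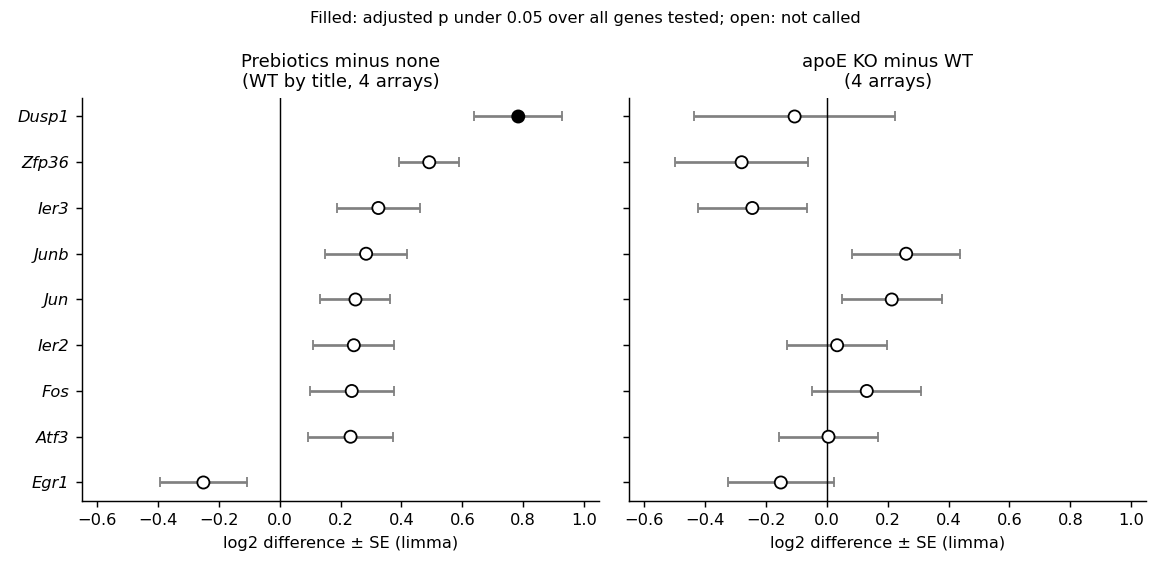
Log2 differences with SE from limma over 4 arrays for the 9 tested genes, for prebiotics against none with WT by title (left) and for apoE KO against WT (right). Dusp1 at 0.78 is the called gene on the left, and on the right 0 genes are called.

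Split by diet, the genotype values differed in sign for Fos, Atf3 and Dusp1. For Egr1, KO minus WT was 0.002 with prebiotics, a value near 0, and -0.305 without. With prebiotics by title, KO minus WT was 0.37 for Fos, 0.37 for Jun and 0.10 for Dusp1. Without prebiotics by title it was -0.11 for Fos, 0.05 for Jun and -0.31 for Dusp1. Zfp36 had -0.29 with prebiotics and -0.27 without. KO minus WT was above 0 for 7 of the 9 genes with prebiotics, against 54.2% of genes, and for 3 of the 9 without, against 51.1%. Of the 9 genes, 0 reached 2-fold in either direction. The background at 2-fold was 0.149% higher and 0.132% lower with prebiotics, and 0.212% higher and 0.13% lower without. The median over the 9 was 0.10 with prebiotics, beside 0.02 over all genes, and -0.11 without, beside 0.01.

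Fosb and Zfp36 lie on chromosome 7, as Apoe does. Apoe had 3.13 and 2.83 on the KO arrays with and without prebiotics, and 4.09 and 3.90 on the WT arrays. In the RefSeq table of GRCm38.p6, 25 annotated genes stand between Fosb and Apoe and 410 between Zfp36 and Apoe. Whether sequence carried along with the knock-out allele touches these probe sets was not tested.

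Other genes of this response, and genes upstream of it, come from 5 related lists, and a list of heat shock genes stands beside them. Of their 87 genes, 80 had a single-symbol probe set, and the other 7 are not analysed here. Over all genes tested, 0.994% were called higher with prebiotics and 0.26% lower, and the median difference was 0.02. Of 7 tested AP-1 and small Maf genes 0 were called, with a median prebiotic difference of 0.07. Fosl2, a Fos relative, came closest, and 3 of 6 alternatives with WT by title called it (limma adjusted p 0.0261 to 0.172). It had 7.37 with prebiotics and 6.86 without in KO caecum, and 7.28 and 6.71 in WT, with a difference of 0.54 (SE 0.11, limma adjusted p = 0.0516). The small Maf genes Mafk and Mafg had 0.32 and 0.16. Of 12 other immediate early transcription regulators 1 was called, with a median of 0.11. This was Klf4, a factor of differentiating colon epithelium, which had 8.78 with prebiotics and 8.25 without in KO caecum, and 8.81 and 8.22 in WT (difference 0.56, SE 0.08, limma adjusted p = 0.0163). The clock gene Per1 had 0.56 and the growth-restraining gene Btg2 0.38, and neither was called.

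Of 17 other feedback regulators 1 was called, against 0.994% of all genes called higher, with a median of 0.09 beside 0.02 over all genes. Errfi1, whose product binds and inhibits the EGF receptor, had 7.63 with prebiotics and 6.68 without in KO caecum, and 7.36 and 6.84 in WT. Its difference was 0.74 (SE 0.13, limma adjusted p = 0.0291), and it was 0.60 for the pseudokinase gene Trib1 and 0.20 for Spry4, an inhibitor of receptor kinase signalling, which were not called. Among 12 tested inducible secreted and effector genes 1 was called, against the same background, with a median of 0.14. This was Ereg, which encodes the EGF receptor ligand epiregulin. It had 6.21 with prebiotics and 5.10 without in KO caecum, and 6.14 and 5.17 in WT, with both arrays with prebiotics above both without. Its difference was 1.04 (SE 0.13, limma adjusted p = 0.00683), and the mean over its probe sets gave 0.57 (limma adjusted p = 0.0738). Of this list, Il6, Tnf, Cxcl1, Cxcl2, Ccl2 and Timp1 lay below the array median on all 4 arrays. Ptgs2, the inducible cyclooxygenase, had -0.33 and Hbegf, another EGF receptor ligand, 0.26, and neither was called.

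Upstream of these genes, 0 of 13 tested kinases and factors were called, with a median of 0.13 beside 0.02 over all genes. Srf, the serum response factor, had 0.50 (SE 0.13, limma adjusted p = 0.128), the kinase gene Map2k1 had 0.32 and Elk4, a partner of the serum response factor, -0.27. Of 10 heat shock genes 2 were called, against a background of 0.994% of genes called higher, and the list median was 0.17. The differences of the 10 ran from -0.24 to 2.25, with 6 above 0, against 55.1% of all genes tested. Hspa1b, an inducible chaperone gene, had 8.78 with prebiotics and 5.77 without in KO caecum, and 6.64 and 5.16 in WT. Its difference was 2.25 (SE 0.28, limma adjusted p = 0.00683), with 3.01 in the KO pair and 1.48 in the WT pair. Its neighbour Hspa1a had 7.44 and 5.25 with and without prebiotics in KO caecum, and 5.52 and 4.07 in WT. Its difference was 1.82 (SE 0.18, limma adjusted p = 0.00177), with 2.19 in the KO pair and 1.45 in the WT pair. The co-chaperone gene Bag3 had 0.47 and was not called. On the lower side 0 genes of these 6 lists were called, against a background of 0.26%. Without a variance trend, Klf4 (limma adjusted p = 0.165), Errfi1 (0.144) and Hspa1b (0.0623) were not called, nor was Errfi1 without the filter (0.0738). With the WT arrays exchanged, 0 of the called genes stayed called, and Klf4 had -0.03, Errfi1 0.22, Ereg 0.07, Hspa1a 0.37 and Hspa1b 0.77.

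**Figure D4:**
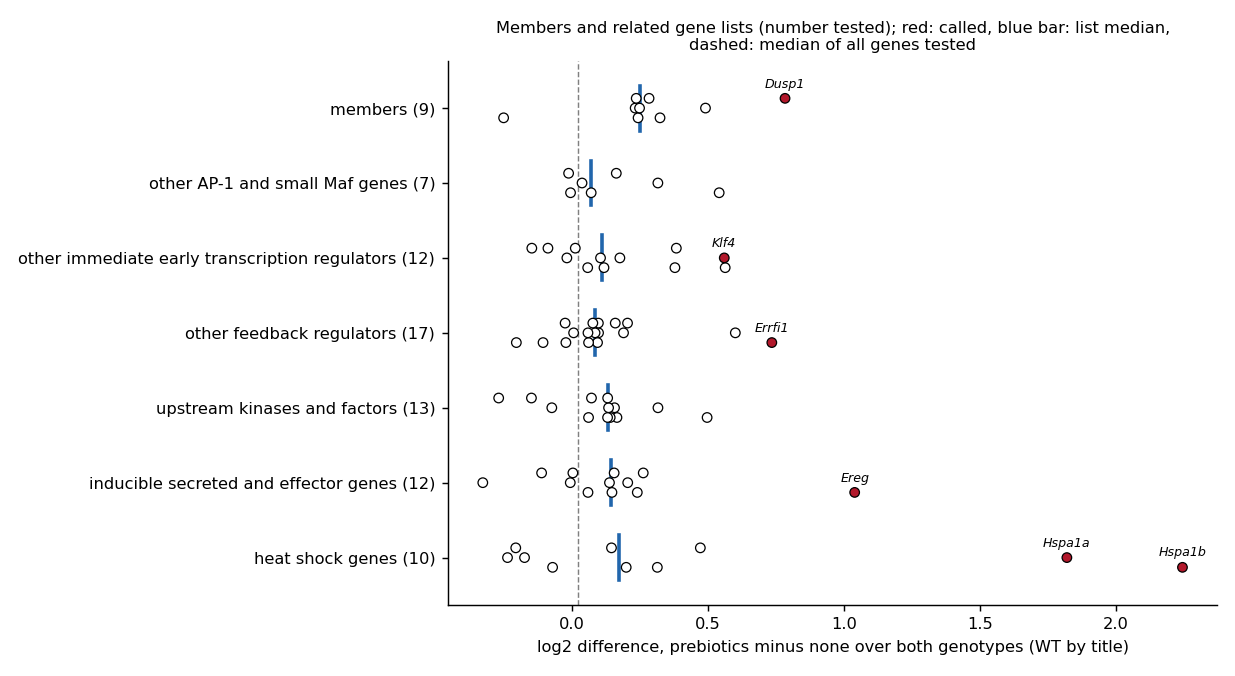
Log2 difference with prebiotics over both genotypes (WT by title) for each tested gene of the immediate early group and of 6 other lists, with called genes in red and named, list medians as blue bars and the median of all genes as a dashed line. Dusp1, Klf4, Errfi1, Ereg, Hspa1a and Hspa1b are the called genes.

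The mean profile of the 9 genes, centred on each gene's own mean, was 0.18 on the KO array with prebiotics and -0.19 on the KO array without, and 0.11 and -0.09 on the WT arrays. The root mean square distance from it over the 4 arrays, which counts size as well as shape, was smallest for Atf3 (0.03) and Ier2 (0.06), and largest for Egr1 (0.28) and Dusp1 (0.26). Among 4545 other genes with at least that range, the nearest were Lhfpl2, Gm9234, Slc6a19 (a neutral amino acid transporter), Mir1963, Dusp8 (another MAP kinase phosphatase) and Zfp707, at distances of 0.013 to 0.018.

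With WT by title, markers of some cell types differed between the arrays with and without prebiotics. The 12 lists are read against the background of 0.994% of genes called higher and 0.26% called lower. With the WT arrays exchanged, 0 of the 13083 genes were called in either direction, these markers included. The epithelial markers were present, with 8 of 8 past the filter, a median difference of 0.04 and 0 called. Over all genes tested, 55.1% had values above 0. Colonocyte markers had values above 0 in 6 of 6, with 4 called higher. Their summed linear RMA level was 14241 with prebiotics and 11511 without in KO caecum, and 13864 and 11264.5 in WT. Smooth muscle markers had values below 0 in 5 of 6, with 2 called lower, and their sum was 4480.3 with prebiotics and 5069 without in KO caecum, and 3464 and 4197 in WT. Fibroblast markers had 1 of 6 called higher and adipocyte markers 1 of 3 tested called lower. Goblet, endothelial, macrophage, neutrophil and mast cell, B cell, T cell, and enteric neuron and glia markers had 0 called in either direction. Within the KO pair B cell markers had a median of -0.91, with 0 of 4 above 0 and 2 at least 2-fold lower. Over all genes in that pair, 56.0% were above 0 and 0.139% at least 2-fold lower. The summed level of the B cell markers was 34.7 with prebiotics and 63.1 without, beside 70.2 and 67.1 in WT. Macrophage markers had a median of 0.04 within the KO pair and 0.47 within the WT pair. There 1 of 6 was at least 2-fold higher, against 0.335% of all genes in the WT pair. Below the array median on all arrays were Elavl4, S100b, S100a8, S100a9, Csf3r, Cd3d, Cd8a, Adipoq and Lep. The part of these shifts in the values of the immediate early genes was not tested. In pooled whole tissue, fewer cells of a type and less RNA per cell cannot be told apart.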

How the data were processed

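Gene expression was measured on 4 arrays, 1 per group, each of RNA pooled from 6 mice, with 100 ng labelled. The deposited values are log2 values made by the authors with Affymetrix Expression Console and RMA, per the submitters' processing notes, with no version given. RMA subtracts background, brings arrays to a common distribution and summarises probes, which compresses differences near background. The log base is that of RMA. The number of arrays limits the precision. With 1 pool per group, p-values do not measure the spread between mice or between pools of a group. The residual of the prebiotic fit is the disagreement between the KO and WT prebiotic differences. That of the genotype fit is the difference between the 2 arrays of each genotype. Both are moderated in limma over all genes tested.

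The table held 41345 probe sets: 23521 with 1 symbol, 1814 with several and 16010 with none here. The probe set with the highest mean stood for its gene. Prebiotics over both genotypes were fitted with genotype as a covariate (1 residual degree of freedom), and genotype without covariates (2 degrees), in limma 3.58.1 under R 4.3.3 with a variance trend. Tests were two-sided, with Benjamini-Hochberg adjustment over all genes tested and calls at 0.05. Differences of 1 array against 1 were counted at 2-fold. Alternatives were no filter, a 75th percentile filter, mean over probe sets, cyclic loess, median centring, no trend, exchanged WT arrays, diet as a block and leaving out arrays.

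The genes and lists were chosen with earlier results of these data known. All 10 genes are named, and of the other lists the 3 largest prebiotic differences and every called gene. The 6 genes nearest to the mean profile are named too. The 12 cell type marker lists are given as counts.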

Additional observations from a re-analysis of the deposited data

Results flagged for a closer look

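For 4 genes the sign of a difference turned between the levels of the other factor, with 1 array on each side, and these turns were not tested. The prebiotic log2 difference of Fos was 0.476 in KO and -0.003 in the WT pair by title. KO minus WT for Fos was 0.371 with prebiotics by title and -0.109 without. The same genotype difference was 0.002 with prebiotics and -0.305 without for Egr1, 0.124 and -0.113 for Atf3, and 0.102 and -0.315 for Dusp1. The Egr1 value with prebiotics was -0.032 with cyclic loess and -0.034 with median centring. Of these values, those near 0 carry no direction.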

How the results depend on the processing

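The count of immediate early genes called higher with prebiotics was 1 as reported and 1 with cyclic loess or the 75th percentile filter. The gene called at that filter was Zfp36, while Dusp1 had an adjusted p of 0.0508. The count was 2 with the mean over probe sets and 2 with median centring, 0 without the filter, 0 without a variance trend and 0 with the WT arrays exchanged. Over all genes, limma called 130 higher and 34 lower, 216 and 108 with median centring, 68 and 17 without the filter, 21 and 4 without a trend, and 0 and 0 (170 at an unadjusted p under 0.05) with the WT arrays exchanged. With the WT arrays exchanged the prebiotic difference was -0.137 for Junb, 0.153 for Egr1, -0.026 for Ier2, -0.012 for Zfp36, -0.031 for Fosl2, -0.03 for Klf4, -0.088 for Map2k1 and -0.14 for Spry4, and the median of the 9 genes in the WT pair was -0.27. With that exchange both arrays with prebiotics lay above both without for 1 of the 9 genes, Fos (background 14.0%), and below for 0 (12.4%).

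For genotype, 0 of these genes were called under any alternative run, including diet as a block. The difference of Atf3 was -0.007 with cyclic loess and -0.021 with median centring. Leaving out 1 array at a time, genotype differences ran between -0.107 and 0.369 for Fos, -0.101 and 0.168 for Ier2, -0.171 and 0.181 for Atf3, -0.602 and 0.39 for Dusp1, and -0.354 and 0.051 for Egr1. The cause of these changes was not tested. Leaving out 1 array from the prebiotic comparison leaves the pair of the other genotype, a value with no test. The labels give no replicate numbers to pair arrays by, so arrays were matched only by genotype or by diet. Differences of genes with values close to the array median, such as Fosb, Ier3 and Atf3, are limited by signal over background.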
